A study of Mus musculus with 10 samples.

Results

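The genes described here are the ligands of the epidermal growth factor (EGF) family and the ErbB receptors they bind, taken as a fixed list of 10 genes and read from the brightest probe set that carried the gene's symbol alone. Probe sets were found for 9 of the 10, namely the ligands Egf, Tgfa, Ereg, Btc, Hbegf and Nrg1 and the receptors Egfr, Erbb2 and Erbb3. The ligand Areg had no probe set under its own symbol in the gene table used here, so it was not analysed here. All 9 passed the filter on dim probe sets, among 18826 genes that did. Ereg had 2 such probe sets and each of the other genes had 1.

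Expression was measured on 10 Affymetrix arrays of dissociated salivary gland cells. All mice were females of the inbred strain NOD/ShiLtJ, in which immune cells attack the insulin-producing islets and infiltrate the salivary glands. The groups were mice with type 1 diabetes at 21 weeks of age (n = 4), mice without diabetes at 21 weeks (n = 3) and mice without diabetes at 6 weeks (n = 3). There was no diabetic group at 6 weeks, so diabetes was only seen in older mice. The labels give neither which salivary gland was taken, nor how long the mice had been diabetic, nor their blood glucose. Mice are numbered within each group, so an array was taken to be 1 mouse. In a bulk sample of this kind, fewer cells of a type and less RNA per cell cannot be told apart.

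EGF family ligands are made as membrane-anchored precursors, cut loose by proteases of the ADAM family, and bind receptor tyrosine kinases that pair with each other and signal through the RAS-MAPK and PI3K-AKT cascades. EGF and transforming growth factor alpha (Tgfa) bind EGFR, epiregulin (Ereg), betacellulin (Btc) and heparin-binding EGF (Hbegf) bind EGFR and ERBB4, and neuregulin 1 (Nrg1) binds ERBB3 and ERBB4. In the mouse submandibular gland, EGF is stored in granules of the granular convoluted tubule, a duct segment that also stores kallikreins and is more developed in males than in females.

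Values are log2 intensities, so a difference of 1 is a doubling. They were tested with limma in 1 fit over all 10 arrays and all 18826 genes, with a two-sided test and Benjamini-Hochberg adjustment over all genes, and a gene is said to have risen or fallen only where its adjusted p was below 0.05. Differences are given with the standard error (SE) of that fit. The probe sets of different genes respond differently to the same amount of RNA, so values are not compared between genes. Of the nondiabetic 21-week arrays, number 3 was unlike the rest, correlating with the other arrays at 0.901 to 0.93 against 0.94 to 0.975 among the other 9.

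Acinar markers that included Aqp5, the water channel of saliva-secreting cells, were bright on every array, with a mean over 4 genes of 8.05 to 8.61 on the diabetic arrays, 8.45 to 8.68 on the nondiabetic 21-week arrays and 8.53 to 8.65 on the 6-week arrays. Markers of single glands differed far more. The mean of 11 granular convoluted tubule genes was 4.73 to 6.88 in the diabetic group, 9.36 to 10.04 in the nondiabetic 21-week group and 8.21 to 8.70 in the 6-week group. The mean of 6 parotid serous genes was 10.28 to 10.74 in the diabetic group, 4.28 to 6.68 in the nondiabetic 21-week group and 4.85 to 8.66 in the 6-week group. The part of these marker differences in the results below was not tested.

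The question put by the main comparison was how salivary glands of diabetic NOD mice differ from those of nondiabetic mice of the same age. Of the 9 measured genes 1 fell, Egf, and 8 stayed on the other side of the threshold, with 0 rising. Of all genes tested 1.44% passed in either direction and 0.34% fell. The arrays of both groups did not overlap for 1 of the 9, again Egf, against 14.1% of all genes. The median log2 change over the 9 genes was 0.11, beside 0.03 over all genes, and the median size of the change regardless of direction was 0.15 beside 0.16.

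Egf, whose product is the growth factor released into saliva, stood at 7.61, 7.62, 7.59 and 6.73 in the diabetic glands, against 9.28, 9.54 and 10.20 in the nondiabetic 21-week glands. All diabetic values lay below all nondiabetic ones, with 3 of the 4 diabetic values within a few hundredths of each other and the other far lower. Egf fell 4.87-fold (log2 change −2.28 ± 0.25 SE, 95% interval −2.83 to −1.74, adjusted p = 0.000663 by limma), which placed it 19th of the 18826 genes by p-value. It still ranked above 93.9% of the probe sets on the array where it was lowest, so the lower values were not close to background. The call held with each array left out in turn, with a log2 change of −2.48 to −2.02. Without both nondiabetic array 3 and diabetic array 4 the change was −1.80 (adjusted p = 0.000767).

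The 6-week glands lay between the other groups, with Egf at 8.22, 8.63 and 8.64. Every diabetic array was below every 6-week array, and every nondiabetic 21-week array was above. The mean was 7.39 ± 0.44 in the diabetic group (SD, n = 4), 9.68 ± 0.47 in the nondiabetic 21-week group and 8.50 ± 0.24 in the 6-week group (SD, n = 3 each). A second probe set, which shares its symbols with a neighbouring RIKEN transcript and was not tested, was dim, with means of 3.06 in the diabetic, 3.50 in the nondiabetic 21-week and 3.17 in the 6-week group.

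**Figure D1:**
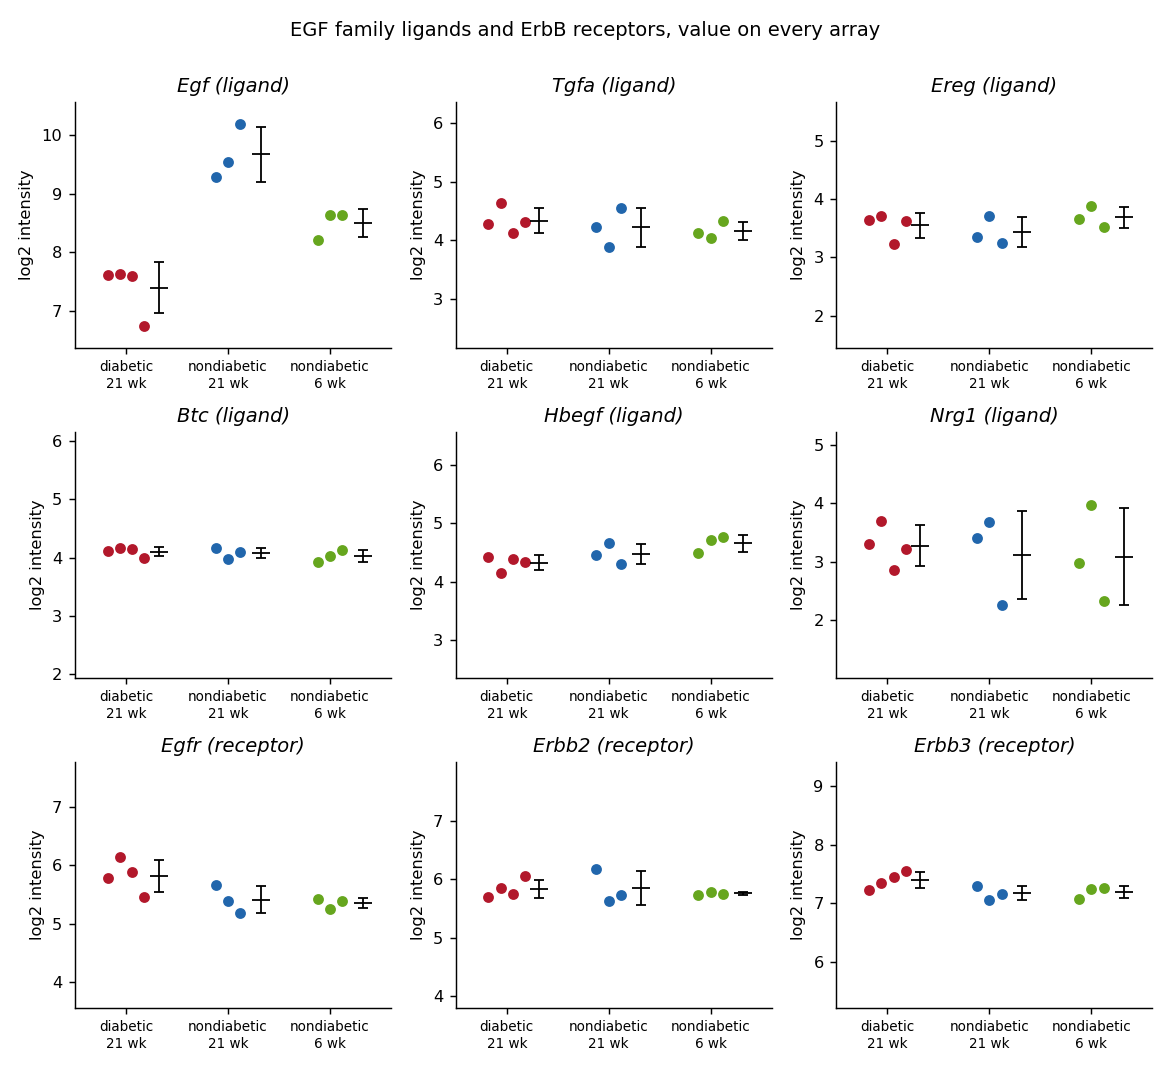
Log2 intensity (vertical axis, the same span of log2 units in each panel but a different centre) of the 9 measured genes on every array, with the group on the horizontal axis; the bar beside the points is the mean ± SD. The 3 groups separate completely for Egf, with diabetic arrays at 6.73 to 7.62. The other genes stay within a smaller range, which is widest for Nrg1, at 2.25 to 3.97.

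The mouse promoter of Egf is shown beside that of the gene whose profile over the arrays was most like it, the kallikrein Klk1b24, because both were high in the nondiabetic 21-week glands and low in the diabetic ones. Sequences are the 250 bases before the annotated start in RefSeq (GRCm38.p6), written 5′ to 3′ on the gene's own strand, at chr3:129755323-129755572 (minus strand) for Egf and chr7:44187986-44188235 (plus strand) for Klk1b24. Capitals mark TTTAAA, a match related to the TATA box that was looked for after the sequences had been seen.
Egf: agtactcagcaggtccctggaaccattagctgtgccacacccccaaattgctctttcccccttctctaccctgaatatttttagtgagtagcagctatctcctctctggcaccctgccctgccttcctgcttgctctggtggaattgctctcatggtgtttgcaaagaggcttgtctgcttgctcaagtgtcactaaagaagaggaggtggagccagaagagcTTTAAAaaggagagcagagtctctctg
Klk1b24: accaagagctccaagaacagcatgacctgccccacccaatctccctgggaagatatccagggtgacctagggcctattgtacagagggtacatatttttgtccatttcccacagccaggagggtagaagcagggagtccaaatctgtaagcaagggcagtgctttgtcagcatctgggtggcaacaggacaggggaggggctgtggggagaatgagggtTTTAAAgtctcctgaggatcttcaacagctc
The match began 27 bases before the start of Egf and 31 before that of Klk1b24. Of the next nearest profiles, Klk1b27 had 1 match, 17 bases before its start, and Sult1c1 had 0. TTTAAA, which reads the same on both strands, occurred in 12.1% of the 32851 mouse promoters of the table in the same window. The half-site TGTTCT of androgen and glucocorticoid receptors, searched on both strands, occurred in 16.1% of all promoters. It had 0 matches in the Egf window and 1 in the Klk1b24 window, 237 bases before the start. Sult1c1 had 1 match, 58 bases before its start, and Klk1b27 had 0. A second annotated Egf start had 0 matches to either motif. Of the other genes on the list, the promoters of Tgfa, Areg, Btc, Egfr and Erbb2 were searched, and each had 0 matches to TTTAAA. Those of Hbegf, Ereg, Nrg1 and Erbb3 were not searched. The GC box GGGCGG, searched on both strands, occurred 2 times before Tgfa, once each before Areg and Egfr, and not before Egf, Btc or Erbb2, against 32.7% of all promoters with a match.

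The other EGFR ligands stood at levels that overlapped between the diabetic and nondiabetic 21-week glands. Tgfa, a ligand of many epithelia, had 4.27, 4.63, 4.12 and 4.32 in diabetic glands and 4.23, 3.89 and 4.55 in nondiabetic glands of the same age. Its log2 change was 0.11 ± 0.17 SE with a 95% interval of −0.26 to 0.48 (adjusted p = 0.793 by limma). A fall as large as that of Egf lies outside this interval.

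Btc had 4.12, 4.16, 4.15 and 3.99 in diabetic glands and 4.17, 3.98 and 4.09 in nondiabetic 21-week glands. With group SDs of 0.08 to 0.10 it was the least variable ligand, and its log2 change of 0.02 had a 95% interval of −0.22 to 0.27. Ereg stood at 3.63, 3.71, 3.22 and 3.63 in diabetic glands, against 3.35, 3.72 and 3.24 in nondiabetic ones (log2 change 0.11, interval −0.24 to 0.46). Its 2 probe sets gave log2 changes of 0.113 and 0.106 when tested separately. Ereg ranked between 39.5% and 55.4% of the probe sets of an array, so it was of middling brightness.

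Hbegf, a ligand that ERK signalling and tissue injury are known to induce, had 4.42, 4.15, 4.40 and 4.33 in diabetic glands and 4.45, 4.66 and 4.31 in nondiabetic 21-week glands. Its log2 change was −0.15 with an interval of −0.43 to 0.14 (adjusted p = 0.623 by limma), and the groups overlapped. Nrg1, a ligand made by nerves and mesenchyme, was the most scattered member, with 3.31, 3.70, 2.85 and 3.22 in diabetic glands and 3.40, 3.68 and 2.25 in nondiabetic ones. It lay at or below the array's 25th percentile on 2 of the 10 arrays, and its log2 change of 0.16 had an interval of −0.67 to 0.98. That interval is the widest of the 9 genes, so little can be said of Nrg1 from these arrays.

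Among the receptors, Egfr, which binds EGF itself, had 5.78, 6.13, 5.88 and 5.46 in diabetic glands and 5.65, 5.39 and 5.18 in nondiabetic 21-week glands. Only the lowest diabetic array, array 4, lay within the nondiabetic range. The log2 change was 0.40 ± 0.16 SE with a 95% interval of 0.05 to 0.76 (unadjusted p = 0.0289, adjusted p = 0.258 by limma), so it did not pass over all genes, of which 15.8% had an unadjusted p below 0.05. With each array left out it was 0.29 (without nondiabetic array 3, adjusted p = 0.517 by limma) to 0.53 (without nondiabetic array 1, adjusted p = 0.182), and with quantile normalization it was 0.25 (adjusted p = 0.434).

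Erbb3, the neuregulin receptor with little kinase activity of its own, had 7.23, 7.35, 7.45 and 7.56 in diabetic glands and 7.30, 7.06 and 7.16 in nondiabetic ones. These overlapped by 1 array, and the log2 change was 0.23 with an interval of −0.04 to 0.49 (adjusted p = 0.405 by limma). Erbb2, the partner receptor that binds no ligand, had 5.70, 5.85, 5.75 and 6.05 in diabetic glands and 6.18, 5.62 and 5.74 in nondiabetic glands. Both groups averaged 5.84, and the interval of the log2 change was −0.33 to 0.31. A change in receptor level as large as the Egf fall lies outside the intervals of all 3 receptors.

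**Figure D2:**
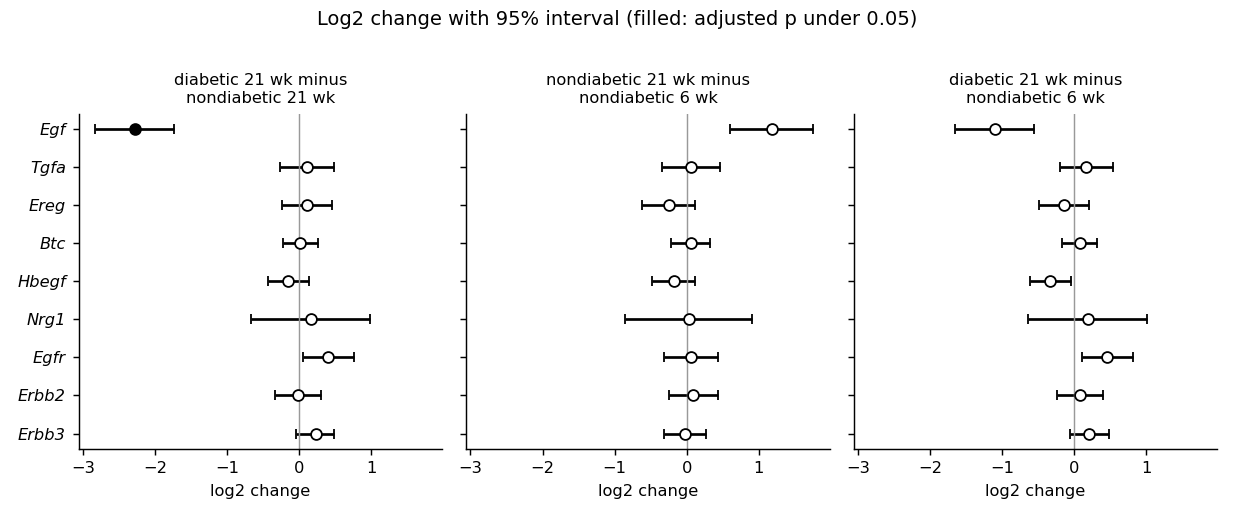
Log2 change of each gene (horizontal axis) with its 95% interval from the limma fit, in the 3 comparisons between groups. The filled point is Egf between diabetic and nondiabetic 21-week glands, at −2.28, and it is the only one with an adjusted p below 0.05.

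The second comparison set nondiabetic glands at 21 weeks against those at 6 weeks. T cell markers averaged 4.22 to 4.95 at 21 weeks and 3.69 to 3.91 at 6 weeks, though 0 of these 6 markers passed by limma. Age and cell content cannot be told apart in this comparison. Of the 9 genes 0 passed the test by limma, 1 had an unadjusted p below 0.05, and of all genes 0.0266% passed and 7.47% had an unadjusted p below 0.05. Egf was higher by 1.18 ± 0.27 SE on the log2 scale at 21 weeks, a 2.27-fold difference (95% interval 0.60 to 1.76, unadjusted p = 0.000774, adjusted p = 0.337 by limma). Its arrays did not overlap between the ages, as for 13.8% of all genes. Without both nondiabetic 21-week array 3 and diabetic array 4 the difference was 0.92, with an adjusted p of 0.0497.

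For the other 8 genes the 2 ages differed by −0.25 to 0.09 on the log2 scale, and both ages overlapped. The 6-week values of Tgfa were 4.12, 4.04 and 4.34 and those of Btc 3.92, 4.02 and 4.13. Ereg had 3.66, 3.88 and 3.52 at 6 weeks, and its difference of −0.25 (interval −0.62 to 0.12) was the most negative of the 9. The receptors were nearly level, with Egfr at 5.41, 5.25 and 5.38, Erbb2 at 5.73, 5.79 and 5.75 and Erbb3 at 7.07, 7.24 and 7.27 in 6-week glands. Nrg1 at 6 weeks ran from 2.32 to 3.97, with array 3 near background.

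Diabetic 21-week glands were also set against nondiabetic 6-week glands, a comparison in which diabetes and age cannot be told apart and which shares its arrays with both others. By limma 0 of the 9 genes passed, beside 1.44% of all genes, and 3 had an unadjusted p below 0.05, beside 14.9% of all genes. Those 3 were the genes whose arrays did not overlap, against 16.7% of all genes.

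Egf was lower in diabetic glands by a log2 change of −1.10 ± 0.25 SE (2.15-fold, interval −1.65 to −0.56), and its adjusted p of 0.0515 lay just past the threshold. It passed without nondiabetic 21-week array 1 (adjusted p = 0.0485) and without nondiabetic 21-week array 3 (0.0254), and not without any of the other 8 arrays, with the adjusted p as high as 0.189.

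Egfr was higher in diabetic glands by 0.46 (interval 0.11 to 0.82, adjusted p = 0.202 by limma), with 5.46 to 6.13 in diabetic glands and 5.25 to 5.41 in 6-week glands. Hbegf was lower by −0.33 (interval −0.61 to −0.04, adjusted p = 0.261 by limma), with 4.15 to 4.42 in diabetic glands and 4.49, 4.71 and 4.76 in 6-week glands. The other 6 genes had log2 changes of −0.14 to 0.21, and their intervals held 0.

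The profile of Egf over the arrays was set beside those of all other genes by the root mean square difference between log2 values, each centred on the gene's own mean over the 10 arrays. The 3 nearest were Klk1b24 (0.28), Sult1c1 (0.30) and Klk1b27 (0.31), while the SD of Egf itself over the arrays was 1.06. Klk1b24 and Klk1b27 are tissue kallikreins and Sult1c1 is a sulfotransferase. Klk1b24 had 6.49, 6.83, 6.13 and 5.61 in diabetic glands, 8.88, 8.82 and 9.37 in nondiabetic 21-week glands and 7.40, 7.40 and 7.72 in 6-week glands. This is the order of groups seen for Egf, with diabetic array 4 lowest and nondiabetic 21-week array 3 highest in both genes. Mouse kallikrein genes are very similar in sequence, so whether their probe sets share signal is uncertain.

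All 11 measured granular convoluted tubule genes fell in the diabetic glands relative to nondiabetic 21-week glands, with a median log2 change of −3.24. Of all genes 0.34% fell. Klk1b24 and Klk1b27, named above for their likeness to Egf, are among these 11. Between the nondiabetic ages 0 of the 11 passed by limma, with a median of 1.33. An unadjusted p below 0.05 was found for 7 of them, beside 7.47% of all genes. In diabetic against 6-week glands, where 1.44% of all genes passed, 10 of the 11 fell, with a median of −2.71. Egf shared each of these directions.

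The 11 tubule genes had log2 changes of −6.07 (Klk1b8) to −1.60 (Klk1b5) in diabetic against nondiabetic 21-week glands, and that of Egf lay within this range, level with Klk1b27 at −2.28 and smaller in size than 9 of the 11. The Egf value minus the mean of the 11 tubule genes on the same array was 1.13, 0.75, 1.83 and 2.00 in diabetic glands and −0.08, 0.05 and 0.16 in nondiabetic 21-week glands. Every diabetic value lay above every nondiabetic 21-week one, and the group means differed by 1.38. This did not pass 0.05 (exact two-sided permutation test over 35 regroupings of the arrays, p = 0.0571). The grouping observed was already the most extreme in its direction, so the few regroupings limit what this test can decide. The mean of the 11 genes includes the largest falls, such as Klk1b8 and Klk1b22 (−4.64). In 6-week glands the Egf value minus that mean was 0.01, 0.21 and −0.07. Between the nondiabetic ages the means did not separate (difference 0.00, exact permutation p = 0.9). With only 20 regroupings, that test between the ages could not have gone below 0.05. Of the 11 tubule genes 2 lay at or below the array's 25th percentile on at least 1 diabetic array, against 0 on the nondiabetic arrays, and how probe sets respond near background was not tested.

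**Figure D3:**
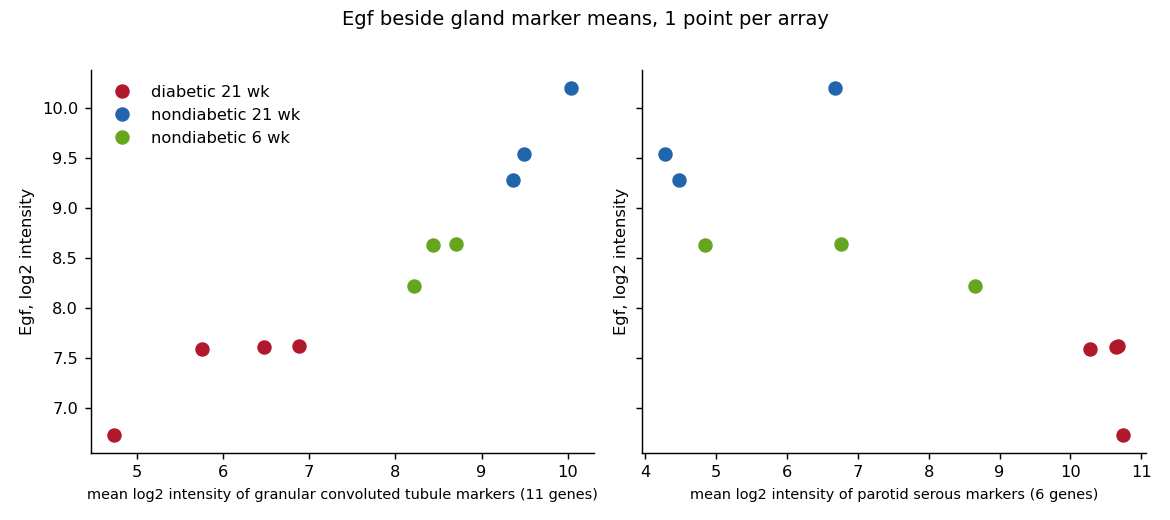
Egf (vertical axis, log2 intensity) against the mean log2 intensity of granular convoluted tubule markers (left) and parotid serous markers (right), 1 point per array. Diabetic arrays sit at the low end of the tubule axis, at 4.73 to 6.88, and at the high end of the parotid axis, at 10.28 to 10.74.

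Other markers moved with the groups as well. Between diabetic and nondiabetic 21-week glands 1.10% of all genes rose and 0.34% fell. Of 9 duct genes 2 fell in diabetic against nondiabetic 21-week glands, the sodium channel subunit Scnn1b (log2 change −1.12, adjusted p = 0.00328 by limma) and the duct regulator Ascl3 (−1.24, adjusted p = 0.0104), and 0 rose. Among 5 myoepithelial and basal genes Acta2 and Myh11 rose, and the mean of the list was 4.95 to 5.37 in diabetic glands against 3.87 to 4.65 in nondiabetic 21-week glands. Egfr is known to be expressed by basal, myoepithelial and stromal cells. The mean of 7 fibroblast genes was 6.06 to 6.42 in diabetic and 5 to 5.73 in nondiabetic 21-week glands. Of these fibroblast genes 0 passed by limma and 4 had an unadjusted p below 0.05, beside 15.8% of all genes. The part of these cells in the Egfr values was not tested. T cell markers averaged 5.70 on diabetic array 4, where Egf was lowest, against 4.53 to 4.58 on the other diabetic arrays. Macrophage genes had 2 of 6 that rose, Cd68 and Mrc1, with a list mean of 5.36 to 6.28 in diabetic and 4.49 to 4.82 in nondiabetic 21-week glands. Adipocyte genes had 2 of 6 that rose, Fabp4 and Retn, with a mean of 4.35 to 4.68 in diabetic and 3.71 to 4.14 in nondiabetic glands. Sublingual mucous genes had 1 of 5 that rose, Galnt12 (log2 change 1.43, adjusted p = 0.0458 by limma). The mucin Muc19 averaged 11.37 in diabetic and 5.86 in nondiabetic 21-week glands, a log2 change of 5.51 ± 1.44 SE that did not pass (adjusted p = 0.0853 by limma). Of 5 mast cell markers 2 were measured, and of 6 nerve and Schwann cell markers 3, and 0 of these passed in that comparison.

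The rest of the family showed little difference. The receptor Erbb4 and the ligands Epgn, Nrg2, Nrg3 and Nrg4 had 0 genes passing in any of the 3 comparisons by limma, and 0 of 5 had an unadjusted p below 0.05. The smallest p between diabetic and nondiabetic 21-week glands was that of Nrg3, at −0.23 (interval −0.47 to 0.01, adjusted p = 0.341 by limma), with values of 2.56 to 2.67 in diabetic and 2.72 to 2.91 in nondiabetic glands, close to background.

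Of 12 measured genes that cut ligands from the membrane or escort the proteases, 0 passed in the 3 comparisons by limma. Without diabetic array 4, Adam9 (log2 change 1.02, adjusted p = 0.0101) and Adam10 (0.61, adjusted p = 0.0378) passed between diabetic and nondiabetic 21-week glands and Adam9 (0.93, adjusted p = 0.0156) between diabetic and 6-week glands, both named after their values had been seen. Between diabetic and nondiabetic 21-week glands 5 had an unadjusted p below 0.05, beside 15.8% of all genes. The list median was 0.19, beside 0.03 over all genes. The smallest p was that of Rhbdf2, the iRhom that escorts ADAM17 to the cell surface, at 0.52 ± 0.13 SE (adjusted p = 0.0668 by limma). Rhbdf2 had 4.83, 4.84, 5.02 and 4.97 in diabetic glands and 4.49, 4.53 and 4.19 in nondiabetic glands, without overlap. Adam17, the main sheddase of TGFA and HBEGF, and Adam10, the main sheddase of EGF and BTC, were singled out after their values had been seen. Their log2 changes were 0.47 ± 0.12 SE (adjusted p = 0.086 by limma) and 0.51 ± 0.14 SE (adjusted p = 0.0988).

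Inhibitors that act back on ErbB signalling had 2 of 19 genes that rose in diabetic against nondiabetic 21-week glands, 0 that fell and 17 that did not pass, with a median log2 change of 0.23. Of all genes 1.10% rose. Dusp5, a nuclear phosphatase of ERK, had 6.08, 5.55, 6.05 and 6.27 in diabetic glands against 5.05, 4.93 and 4.44 in nondiabetic glands. It rose 2.27-fold (1.18 ± 0.18 SE, adjusted p = 0.0085 by limma). Errfi1, which binds and blocks the EGFR kinase, had 6.87, 6.87, 7.18 and 6.81 in diabetic glands and 5.96, 6.25 and 6.27 in nondiabetic glands.

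Errfi1 rose 1.70-fold (0.77 ± 0.14 SE, adjusted p = 0.0229 by limma), and its call was lost without diabetic array 2 (adjusted p = 0.0504), diabetic array 3 (0.0784), nondiabetic array 1 (0.0749) or nondiabetic array 3 (0.0572), and with quantile normalization (0.0606). At 6 weeks Dusp5 lay between the groups, at 5.28, 5.46 and 5.45. In the other 2 comparisons 0 of the 19 passed by limma. For nondiabetic 21-week against 6-week glands 2 had an unadjusted p below 0.05, beside 7.47% of all genes. For diabetic against 6-week glands 4 did, beside 14.9% of all genes.

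Genes that ERK signalling is known to induce had 3 of 14 that rose in diabetic against nondiabetic 21-week glands, 0 that fell and 11 that did not pass, with a median of 0.38. They were Ier3 (1.86 ± 0.29 SE, adjusted p = 0.00773 by limma), an early response gene, and the transcription factors Egr1 (1.21 ± 0.17, adjusted p = 0.00479) and Fos (1.09 ± 0.16, adjusted p = 0.00549). Ier3 had 7.08, 6.68, 7.22 and 7.67 in diabetic glands and 5.36, 5.99 and 4.57 in nondiabetic 21-week glands. Of the 14, 7 had an unadjusted p below 0.05, beside 15.8% of all genes. Members that did not pass included Mcl1 (0.55 ± 0.12 SE, adjusted p = 0.0502 by limma), Junb (0.72 ± 0.20), Plaur (0.64 ± 0.25) and Myc (0.58 ± 0.18), which were higher. Etv4 (−0.29 ± 0.17), Etv5 (−0.15 ± 0.13), Ccnd1 (−0.35 ± 0.24) and Phlda1 (−0.18 ± 0.29) did not pass either and were lower. These members that did not pass were named after their values had been seen.

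Against 6-week glands 4 of the 14 rose, where 0.903% of all genes did. They were Ier3, Egr1 and Fos again and Junb (1.01 ± 0.20 SE, adjusted p = 0.0327 by limma). Leaving out 6-week array 2 left 1 of these 4 called and leaving out 6-week array 3 left 2, and Junb was also lost without 6-week array 1 or diabetic array 2 or 3. Fos, Egr1 and Junb also stand in a list of 12 immediate-early genes that respond to tissue dissociation. Of these 11 rose in diabetic against 6-week glands, Junb among them. In diabetic against nondiabetic 21-week glands 11 rose as well, and Junb did not pass (0.72 ± 0.20 SE, adjusted p = 0.109 by limma). The mean of that list was 7.76 to 8.23 in diabetic glands, 6.79 to 6.98 in nondiabetic 21-week glands and 6.66 to 7 in 6-week glands. Its part in these rises was not tested.

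Receptor adaptors and effectors (15 genes), the RAS-MAPK cascade (8 measured of 13) and the PI3K-AKT cascade (13 measured of 15) had 0 genes passing in the 3 comparisons by limma. In diabetic against nondiabetic 21-week glands 4, 1 and 2 of them had an unadjusted p below 0.05, beside 15.8% of all genes. The members with the smallest p were Eps15, an endocytic adaptor of EGFR (0.46 ± 0.14 SE, adjusted p = 0.139 by limma), Rasa1, a RAS inhibitor (0.31 ± 0.14, adjusted p = 0.313), and Rictor, a subunit of the mTORC2 kinase (0.67 ± 0.17, adjusted p = 0.0839). Rictor had 5.76, 5.70, 5.75 and 6.24 in diabetic glands and 5.41, 5.36 and 4.80 in nondiabetic glands.

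**Figure D4:**
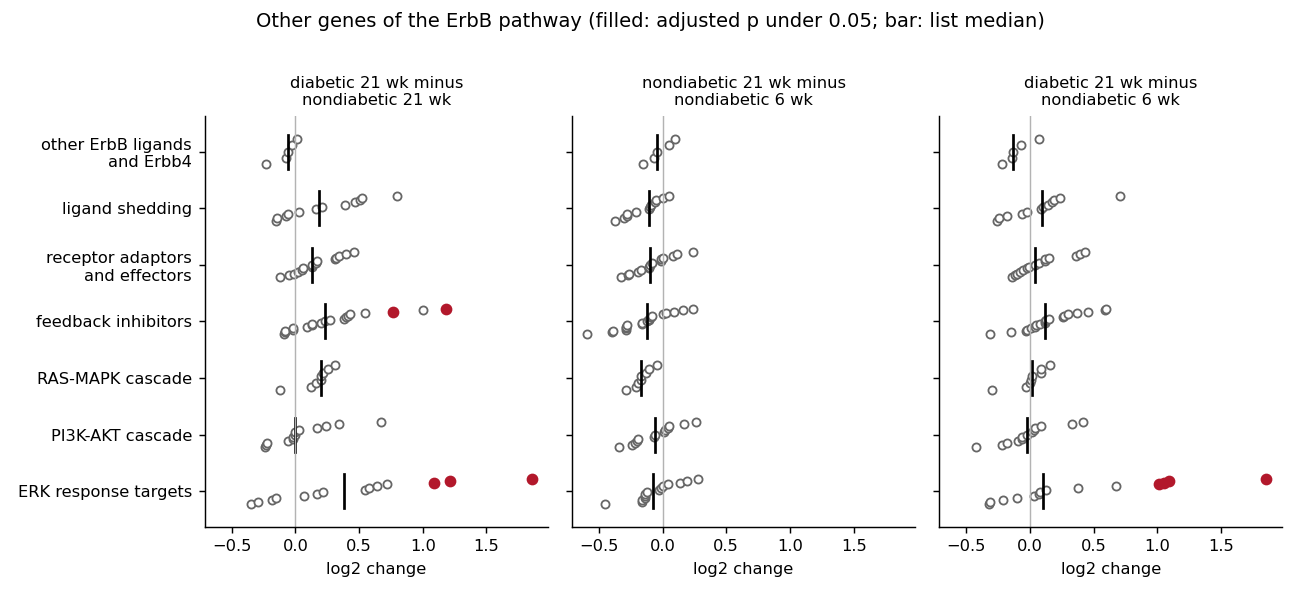
Log2 change (horizontal axis) of the measured genes of 7 lists of the ErbB pathway in the 3 comparisons, with filled points for genes with an adjusted p below 0.05 and a bar at the list's median. Filled points lie among the feedback inhibitors, with Dusp5 at 1.18 and Errfi1 at 0.77, and among the ERK response targets.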

How the data were processed

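Gland tissue was dissociated with collagenase IV and dispase II, cells were filtered, and total RNA was isolated with Trizol, per the labels' protocols. The authors deposited 1 log2 intensity for each of 41345 probe sets, normalized between arrays. The submitters' processing notes name RMA and Affymetrix Power Tools, without versions or settings.

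Of the probe sets, 23521 had 1 symbol, 1814 had several and 16010 were unnamed here, and the last 2 kinds were left out. A probe set was kept if 3 or more arrays had it above their 25th percentile, and the brightest stood for its gene. One mean per group was fitted with limma 3.58.1 (R 4.3.3, lmFit and eBayes, 7 residual and 5.61 prior degrees of freedom). The number of arrays limits precision. The scripts were tested on simulated data.

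Named were all members, and from each pathway list up to 4 genes past the threshold or else the 1 with the smallest p. Members and lists were chosen with earlier results of these data known. Promoters are from RefSeq and were searched for 6 of 10 members.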

Additional observations from a re-analysis of the deposited data

Results flagged for a closer look

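Among the 4 diabetic arrays, Egf on array 4 was 6.73, far from the other 3 at 7.59 to 7.62. The gap was 0.964 of the group's range, past the critical value of 0.829 for 4 samples, and chance alone exceeds that value in about 1 of 20 groups. It was the 1 of 9 genes that did so. The same array had the lowest mean of granular convoluted tubule markers, 4.73 against 5.76 to 6.88 on the other diabetic arrays, and the highest mean of B cell markers, 5.74 against 3.84 to 4.27. Without it, Egf fell by 2.07 on the log2 scale (adjusted p = 0.00118 by limma).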

How the results depend on the processing

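The fall of Egf in diabetic against nondiabetic 21-week glands passed under each of the 24 alternatives, with log2 changes of −2.48 to −1.80 and adjusted p-values of 0.000195 to 0.00349 by limma, and it was the 1 member called under each. Between diabetic and 6-week glands the count of 0 became 1 (Egf) with a filter at the array median, a fit of only the 2 groups, trended variance and quantile normalization. It became 2 (Egf and Egfr) with array weights and without both nondiabetic 21-week array 3 and diabetic array 4, and ran from 0 to 1 with each array left out. Between the nondiabetic ages it became 1 (Egf) without both of those arrays and stayed 0 with each array left out. Of 645 values of members under an alternative, 607 kept their direction and side of the threshold, 11 newly passed and 27 turned sign, all of them of changes that did not pass. For diabetic against nondiabetic 21-week glands these were Ereg (−0.01) and Nrg1 (−0.15) with array weights, Btc (−0.04) with quantile normalization, and Ereg (−0.01) and Nrg1 (−0.26) without both arrays. Between the ages they were Tgfa with array weights (−0.08) and without both arrays (−0.11), Nrg1 (−0.05) and Erbb3 (0.04) with quantile normalization, and Erbb3 (0.01) with median centring. With each array left out, the diabetic against nondiabetic 21-week changes ran from −0.03 to 0.06 for Btc, −0.12 to 0.16 for Erbb2, −0.27 to 0.44 for Nrg1 and −0.06 to 0.28 for Tgfa. Between the ages they ran from −0.06 to 0.17 for Egfr, −0.08 to 0.20 for Erbb2, −0.08 to 0.04 for Erbb3, −0.36 to 0.47 for Nrg1 and −0.11 to 0.23 for Tgfa. For diabetic against 6-week glands Nrg1 ran from −0.20 to 0.63. The cause was not tested. No scaling moved the median over all genes by more than 0.1. Replicate numbers are shared by the groups, but the deviations of same-numbered arrays correlated at −0.12 to 0.07 over 9 pairs. With the replicate number as a block the log2 change of Egf between diabetic and nondiabetic 21-week glands was −2.07 (adjusted p = 0.00236 by limma). The counts of members called were then 1, 0 and 0, and 0 of 27 member values changed call or direction. Of 504 counts of pathway genes 19 moved by over 1.5 times, among them the feedback inhibitors, at 1 in place of 2 with quantile normalization, and the ligand-shedding genes. The shedding count of 0 became 1 or 2 between diabetic and nondiabetic 21-week glands with a filter at the array median, median centring, array weights, the replicate block and without diabetic array 4, alone or with nondiabetic array 3. Members near background, Nrg1 above all, are limited by signal.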
